A study of Mus musculus with 23 samples.

Results

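The 9 genes described here encode the muscle calpains, their inhibitor and regulators of apoptosis: Capn1, Capn2, Capn3, Cast, Nol3, Cflar, Bax, Bcl2l1 and Mcl1. They were chosen by symbol and matched to 9 of the 55573 Ensembl gene IDs in the count table, and their levels were followed in all 23 mice. RNA was sequenced from the quadriceps muscle of C57BL/6J mice (C57Bl6 in the labels) aged 8 to 10 weeks that carried a pellet under the skin for 14 days. The CORT pellet held 50 mg of corticosterone, the main glucocorticoid of mice, with 50 mg of cholesterol, and the vehicle (VEH) pellet held 100 mg of cholesterol. The groups were Male_VEH (n = 6), Male_CORT (n = 6), Female_VEH (n = 6) and Female_CORT (n = 5), each mouse being its own sample, and all mice were fasted for 5 h before the tissue was taken. Mice are named by sex and number (F4, M10). The sources used here do not say if muscle of the sexes was handled in 1 batch, so that a batch and a difference between the sexes cannot be told apart.

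Calpains are proteases of the cytosol that are switched on by calcium and cut selected sites in their substrates, among them proteins that anchor the myofibrils. Calpastatin, the product of Cast, holds the ubiquitous calpains in check. In the mitochondrial route to apoptosis, BAX opens the outer mitochondrial membrane and BCL-XL (Bcl2l1) and MCL1 prevent it, while c-FLIP (Cflar) blocks caspase-8 at death receptors and ARC (Nol3), abundant in striated muscle, interferes with both routes.

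In male muscle, corticosterone was accompanied by higher Bcl2l1, Capn2 and Mcl1 and lower Cflar. In female muscle Bcl2l1 and Capn2 were likewise higher, and Nol3 and Capn1 were lower. Capn3, Cast and Bax passed the test in neither sex. Levels are given as CPM (the share of a mouse's reads on genes, scaled to 1000000) after TMM normalization, and differences as log2 fold change (log2FC) with its standard error (SE). A gene was called when its Benjamini-Hochberg adjusted p from edgeR's quasi-likelihood test, adjusted over 13049 genes, was under 0.01. All 9 genes passed the filter on low counts. Because the tissue was sequenced in bulk, fewer cells of a type and less RNA per cell cannot be told apart.

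**Figure D1:**
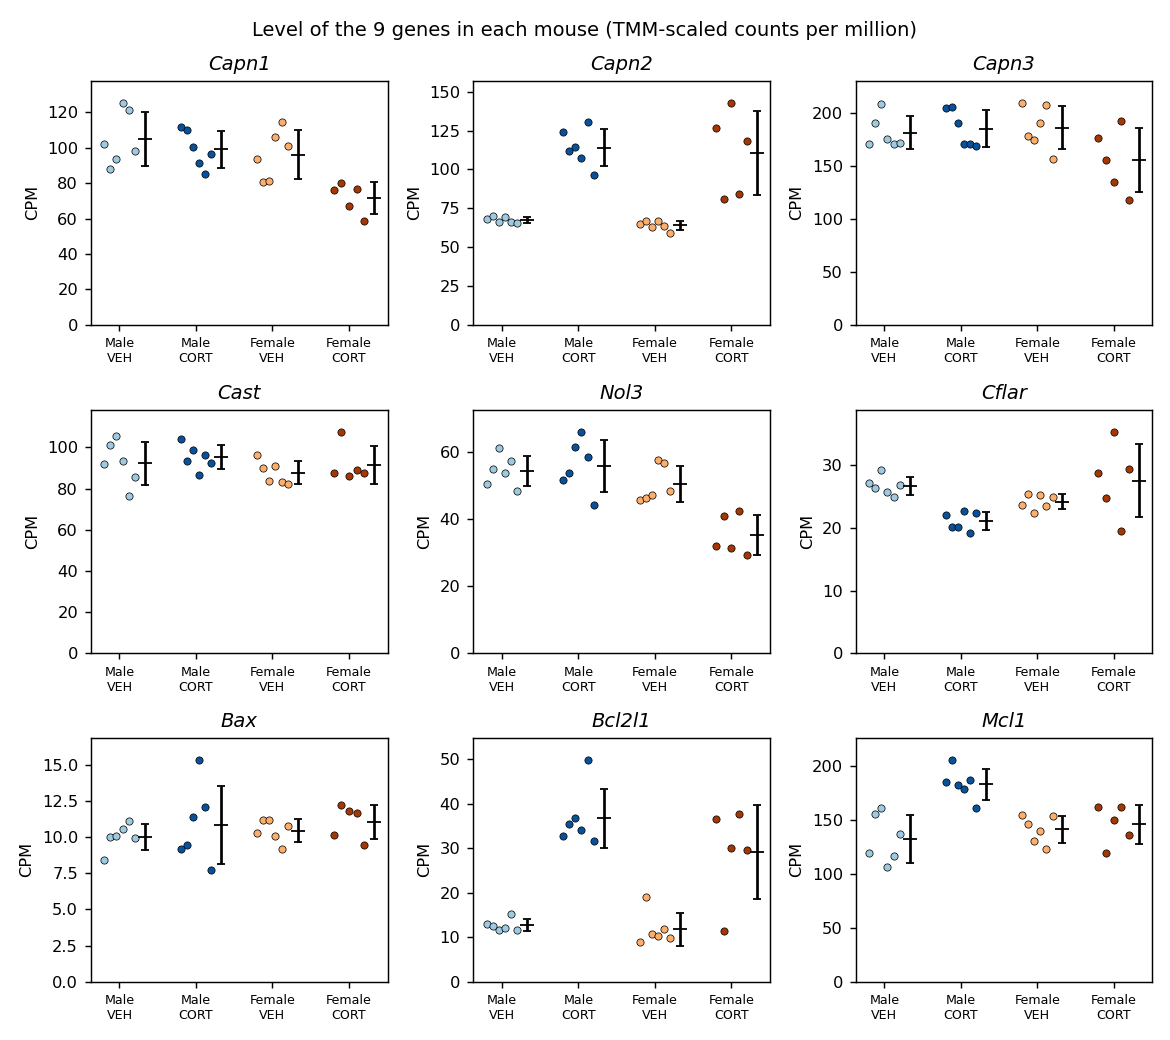
CPM (vertical axes, from 0) of each of the 9 genes in every mouse, in 1 panel per gene, with a point for each mouse and, beside each group, a black dash and bars for its mean and SD. Bcl2l1 in Male_CORT lies between 31.7 and 49.8 CPM, above every Male_VEH mouse, whereas 1 Female_CORT mouse, F4, stays at 11.3 CPM.

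Bcl2l1, on the minus strand of chromosome 2 (GRCm38, chr2:152780668-152831728), changed the most of the 9 genes in both sexes. In Male_VEH it had a lowest, median and highest level of 11.7, 12.3 and 15.3 CPM, and in Male_CORT of 31.7, 34.8 and 49.8 CPM. All treated males were above all vehicle-treated males, with a log2FC of 1.53 (SE 0.22, edgeR adjusted p = 1.26e-05), which is 2.88-fold. In Female_VEH the 3 values were 8.96, 10.4 and 19.1 CPM. The Female_CORT mice F2, F4, F6, F8 and F10 had 36.6, 11.3, 30.0, 37.7 and 29.6 CPM, and their values are given in this order from here on. F4 was thus the only treated female within the vehicle range, and the log2FC was 1.30 (SE 0.22, edgeR adjusted p = 0.000317). Fitted with the 11 females alone, it was 1.28 with an adjusted p of 0.0139, which is not a call. The difference between the male and the female log2FC was 0.23 (SE 0.31, adjusted p = 0.639). Counts per gene do not separate the long, anti-apoptotic transcript of Bcl2l1 from its short, pro-apoptotic one, and the same holds for the splice forms of Mcl1 and Cflar.

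Because Bcl2l1 and Capn2 were the genes called in both sexes, the 250 bases before a start of each are shown, from RefSeq on GRCm38.p6. They are in lower case and 5′ to 3′ on the minus strand that both genes use. The first is chr2:152831729-152831978 and the second is chr1:182517611-182517860. Bcl2l1 had 3 promoters among those searched below, and the 1 furthest upstream is shown. Counts per gene do not show which start was in use.
Bcl2l1: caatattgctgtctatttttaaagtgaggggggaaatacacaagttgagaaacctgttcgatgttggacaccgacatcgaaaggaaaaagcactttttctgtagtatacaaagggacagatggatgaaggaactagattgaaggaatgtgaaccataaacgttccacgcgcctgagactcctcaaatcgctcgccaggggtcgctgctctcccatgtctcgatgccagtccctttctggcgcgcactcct
Capn2: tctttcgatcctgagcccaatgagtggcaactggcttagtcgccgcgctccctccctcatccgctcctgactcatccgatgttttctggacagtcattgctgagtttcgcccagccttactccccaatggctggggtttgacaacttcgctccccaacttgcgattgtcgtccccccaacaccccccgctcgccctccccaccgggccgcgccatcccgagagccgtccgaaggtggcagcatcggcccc
In the table of promoters, which runs from 250 bases before to 50 bases after each start, 8 of the 9 genes had an entry (all but Nol3), with 15 promoters. None of the 15 held, on either strand, the glucocorticoid receptor core site AGAACA, the longer site AGAACANNNTGTTC, which contains that core, or the forkhead site TGTTTAC, so that no letters are in capitals. Of all 32851 promoters of that length, 19.0% held the core, 0.0487% the longer site and 3.65% the forkhead site. The search covers these letters in these windows and does not bear on binding elsewhere.

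Mcl1, a short-lived relative of BCL-XL on chr3:95658788-95663176, plus strand, was called in males alone. Its lowest, median and highest levels were 106, 128 and 161 CPM in Male_VEH and 161, 183 and 205 CPM in Male_CORT, so the groups met at about 161 CPM. The log2FC was 0.47 (SE 0.10, edgeR adjusted p = 0.00111). In females the levels were 123, 143 and 154 CPM with vehicle and 162, 119, 149, 161 and 136 CPM with corticosterone, which overlapped. There the log2FC was 0.05 (SE 0.11, adjusted p = 0.787). The male and female responses differed by 0.42 on the log2 scale (SE 0.15, adjusted p = 0.0626), which did not pass the test.

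Bax, the pore-forming member on chr7:45461697-45466898, minus strand, was low in every group. It ranged from 8.40 to 11.1 CPM in Male_VEH (median 10.02), from 7.72 to 15.3 CPM in Male_CORT (median 10.4) and from 9.17 to 11.2 CPM in Female_VEH (median 10.5). In Female_CORT the values were 10.2, 12.2, 11.8, 11.6 and 9.44 CPM. The groups overlapped in both sexes, with a log2FC of 0.12 in males (SE 0.12, adjusted p = 0.473) and 0.08 in females (SE 0.13, adjusted p = 0.694). Bax shares 192 bp of exon, 12.2% of its exon length, with Gm45808 on the same strand, and read pairs that lay on both genes were not counted. As a description, the ratio of Bcl2l1 to Bax CPM was 1.15 to 1.56 in Male_VEH and 2.23 to 4.13 in Male_CORT. In females it was 0.872 to 1.71 with vehicle and 0.929 to 3.60 with corticosterone, the lowest value being that of F4. CPM is not scaled to gene length, so the ratio compares groups and does not show which gene was more abundant.

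Cflar, the caspase-8 blocker on chr1:58711508-58758884, plus strand, fell in treated males. Its levels were 24.9, 26.6 and 29.2 CPM (lowest, median, highest) in Male_VEH and 19.1, 21.1 and 22.8 CPM in Male_CORT, without overlap. The log2FC was -0.34 (SE 0.09, edgeR adjusted p = 0.00672), a call that was lost in 9 of 29 alternatives, with adjusted p up to 0.0179. In females the vehicle levels were 22.4, 24.3 and 25.4 CPM, and the 5 treated mice had 28.7, 24.8, 35.4, 19.5 and 29.4 CPM. Of the treated females, 3 lay above the vehicle range, 1 within it and 1, F8, below it, and the log2FC was 0.19 (SE 0.10, adjusted p = 0.160). The female log2FC of Cflar turned on single mice: it was 0.29 without F8 (edgeR adjusted p = 0.00789, a call) and 0.07 without F6 (adjusted p = 0.628).

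Nol3, on chr8:105276140-105281939, plus strand, was called lower in females and not called in males. In males it ranged from 48.4 to 61.0 CPM with vehicle (median 54.2) and from 44.2 to 66.0 CPM with corticosterone (median 56.0), which overlapped, and the log2FC was 0.04 (SE 0.10, adjusted p = 0.770). In females the vehicle levels were 45.7, 47.7 and 57.5 CPM, and those of the treated mice were 31.9, 40.9, 31.3, 42.3 and 29.3 CPM. All treated females were below all vehicle-treated females, with a log2FC of -0.52 (SE 0.11, edgeR adjusted p = 0.00172). Fitted with the 11 females alone, the adjusted p was 0.0131.

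Capn2, which encodes the large subunit of m-calpain on chr1:182467260-182517608, minus strand, rose in both sexes. Its levels were 65.6, 67.3 and 70.2 CPM in Male_VEH and 96.2, 113 and 130.3 CPM in Male_CORT, without overlap. The log2FC was 0.75 (SE 0.11, edgeR adjusted p = 1.56e-05), or 1.68-fold. In Female_VEH the levels were 59.3, 64.2 and 66.9 CPM, and the treated females had 127, 80.8, 143, 83.9 and 119 CPM. All 5 treated females were above the vehicle range, F4 and F8 by the least, and the log2FC was 0.79 (SE 0.11, edgeR adjusted p = 5.56e-05). The responses of the sexes differed by -0.04 on the log2 scale (SE 0.16, adjusted p = 0.885). Without F2, F6 and F10 that difference was 0.41 (edgeR adjusted p = 0.0937). The standard deviation of Capn2 was 1.95 CPM in Male_VEH, 12.1 in Male_CORT, 2.83 in Female_VEH and 27.2 in Female_CORT.

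Capn1, which encodes the large subunit of µ-calpain on chr19:5988545-6015897, minus strand, was lower in treated females. In males it ranged from 87.8 to 125 CPM with vehicle (median 100.1) and from 85.3 to 112 CPM with corticosterone (median 98.4), and the overlapping groups gave a log2FC of -0.08 (SE 0.11, adjusted p = 0.587). In Female_VEH the levels were 80.6, 97.3 and 114 CPM, and in the treated females they were 76.3, 80.3, 67.0, 76.5 and 58.4 CPM. The female groups did not overlap, but F4 and the lowest vehicle mouse were almost level, and the log2FC was -0.42 (SE 0.11, edgeR adjusted p = 0.00927). This call lay close to the threshold and was lost in 17 of 29 alternative settings, with adjusted p up to 0.0274.

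Capn3, the muscle-specific calpain that binds titin, lies on chr2:120456019-120504913, plus strand, and shares 386 bp of exon (7.68% of its exon length) with Ganc on the same strand. It ranged from 171 to 209 CPM in Male_VEH (median 174), from 169 to 206 CPM in Male_CORT (median 181) and from 157 to 209.7 CPM in Female_VEH (median 184). The treated females had 176, 156, 135, 193 and 118 CPM, of which 3 were below the vehicle range. The log2FC was 0.03 in males (SE 0.10, adjusted p = 0.834) and -0.26 in females (SE 0.11, adjusted p = 0.0864).

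Cast, the calpain inhibitor on chr13:74692368-74808810, minus strand, was called in neither sex. It ranged from 76.3 to 105.5 CPM in Male_VEH (median 92.6), from 86.6 to 104 CPM in Male_CORT (median 94.9) and from 82.0 to 96.1 CPM in Female_VEH (median 86.8). In Female_CORT the values were 87.4, 108, 85.9, 89.1 and 87.4 CPM, and the groups overlapped in both sexes. The log2FC was 0.05 in males and 0.06 in females (each SE 0.08, adjusted p = 0.658 and 0.610). As a description, the mean log2 ratio of Capn2 to Cast was -0.44 in Male_VEH and 0.25 in Male_CORT (SD 0.16 and 0.12), with no overlap. In females it was -0.45 with vehicle and 0.24 with corticosterone (SD 0.06 and 0.48), and F4 and F8 were the lowest treated mice. The mean log2 ratio of Capn1 to Cast was 0.12 in Female_VEH (SD 0.24) and -0.36 in Female_CORT (SD 0.16), against 0.18 and 0.05 in males (SD 0.34 and 0.13). These ratios too are not scaled to gene length, so their sign does not show if calpain or inhibitor RNA was more abundant.

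Read as a group, 4 of the 9 genes were called in males, 3 higher and 1 lower, where 26.3% of all tested genes were called (13.2% higher and 13.1% lower). In females 4 of 9 were called, 2 higher and 2 lower, where 13.4% of all tested genes were called (7.4% higher and 6% lower). The median log2FC of the 9 genes was 0.05 in males and 0.06 in females, beside -0.02 and 0.04 over all tested genes. The groups did not overlap for 3 of the 9 genes in males (21.9% of all tested genes) and for 3 in females (7.72%).

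**Figure D2:**
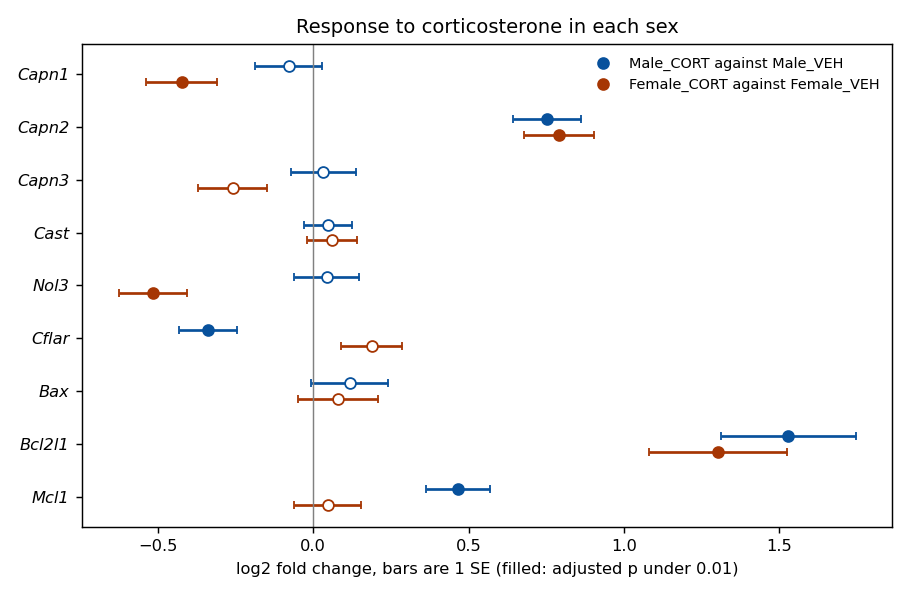
Log2FC of corticosterone against vehicle (horizontal axis) for the 9 genes, males in blue and females in red, with bars of 1 SE and filled points for called genes. Bcl2l1 and Capn2 are above 0.7 in both sexes, Nol3 and Capn1 are below 0 in females with male values close to 0, and Cflar is -0.34 in males and 0.19 in females.

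The difference between the responses of the sexes was tested by the interaction term of the same model. By edgeR none of the 9 genes was called, where 0.69% of all tested genes were, and 4 of the 9 (Capn1, Nol3, Cflar and Mcl1) had an unadjusted p under 0.05, as did 32.1% of all tested genes. The largest differences of log2FC, male minus female, were 0.56 for Nol3 (SE 0.15, adjusted p = 0.0244) and -0.53 for Cflar (SE 0.14, adjusted p = 0.0208). DESeq2 and limma-voom each called 2 of the 9 genes, Nol3 and Cflar, where they called 6.87% and 5.31% of all tested genes. The lower Nol3 and Capn1 in females and the lower Cflar and higher Mcl1 in males were therefore calls in 1 sex whose difference from the other sex did not pass edgeR's test.

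The vehicle groups gave the sexes without treatment. None of the 9 genes was called between Male_VEH and Female_VEH by edgeR, DESeq2 or limma-voom, none had an unadjusted p under 0.05 by edgeR (13.2% of all tested genes did), and 0.958% of all tested genes were called. The groups overlapped for all 9, where 2.55% of all tested genes did not overlap. Between the treated groups 3 of 9 genes were called, where 23.3% of all tested genes were (9.31% higher in males and 14% lower). Nol3 was higher in Male_CORT than in Female_CORT by a log2FC of 0.67 (SE 0.11, edgeR adjusted p = 0.000191) and Capn1 by 0.47 (SE 0.11, adjusted p = 0.00311), each without overlap, as was the case for 12.4% of all tested genes. Cflar was lower in Male_CORT, with a log2FC of -0.39 (SE 0.10, adjusted p = 0.00420, lost in 8 of 30 alternatives) and with F8 inside the male range. Mcl1 was at 0.33 (SE 0.11, adjusted p = 0.0197) and was not called. Without F2, F6 and F10, the 3 mice highest in adipocyte markers, Nol3 was at 0.44 (edgeR adjusted p = 0.0444) and Capn1 at 0.36 (adjusted p = 0.150), neither called. The Capn1 call was also lost without F10 and M8 (adjusted p = 0.0113) and with an adipocyte score as a covariate (adjusted p = 0.0188). Cflar was called in none of these fits. Without F2, F6 and F10 Cflar was at -0.05 (edgeR adjusted p = 0.760). It was at -0.35 without F10 and M8 (adjusted p = 0.0211) and at -0.26 with the covariate (adjusted p = 0.0375).

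Markers of other cells moved with some of these values. The summed level of 7 adipocyte markers was 3625, 6884 and 3265 CPM in the treated females F2, F6 and F10 and 1089 and 269.5 CPM in F4 and F8. It was 282 to 2589 CPM in Female_VEH, 218 to 1000.2 CPM in Male_VEH and 288 to 921 CPM in Male_CORT, and no marker on the list was at 0 in all mice of a group. The same mice F2, F6 and F10 had the highest Capn2 and Cflar and the lowest Nol3 of the treated females. With the adipocyte score as a covariate, the female log2FC was 0.67 for Capn2 (edgeR adjusted p = 0.000981) and 1.26 for Bcl2l1 (adjusted p = 0.00150). The values of Nol3 and Capn1 were then -0.43 and -0.31 (adjusted p = 0.0144 and 0.0838), neither called, and that of Cflar was 0.03 (adjusted p = 0.876). Without the 3 mice, leaving 2 treated females, none of the 9 genes was called. Of all 13049 tested genes 130 were called in that fit, beside 1748 with all mice. Their log2FC was then 1.05 for Bcl2l1 (edgeR adjusted p = 0.0535), 0.35 for Capn2 (adjusted p = 0.0320), -0.28 for Nol3 (adjusted p = 0.245), -0.30 for Capn1 (adjusted p = 0.291) and -0.14 for Cflar.

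**Figure D3:**
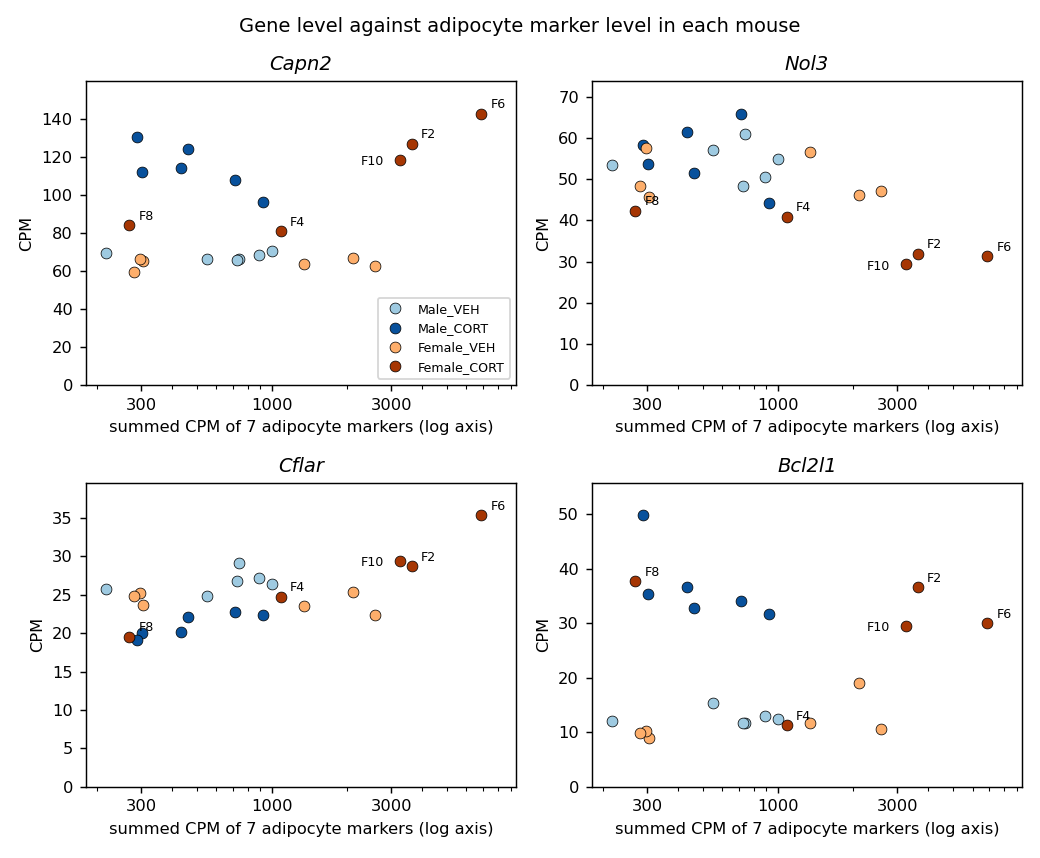
CPM of Capn2, Nol3, Cflar and Bcl2l1 in each mouse (vertical axes) against the summed CPM of 7 adipocyte markers (horizontal axes, log scale), coloured by group, with the treated females named. F2, F6 and F10, at 3265 to 6884 CPM of markers, have Capn2 of 119 to 143 CPM, and F4 and F8 have 80.8 and 83.9 CPM.

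Other markers also differed. The summed level of 8 muscle fiber markers was 77452 CPM in F10 and 92218 CPM in F6, below all other mice, and 118030 to 204730 CPM in Male_CORT. Of 6 fibroblast markers the median sum was 1193 CPM in Male_VEH and 429 CPM in Male_CORT, without overlap, and 1218 and 812 CPM in females, with overlap. Macrophage markers, 7 in number, summed to 83.1 to 262 CPM in Female_CORT and 58.8 to 88.5 CPM in Male_CORT. Of 5 erythrocyte markers, 4 were called higher in each sex, and their sum was 104 to 204 CPM in Male_VEH, 189 to 672 CPM in Male_CORT and 84.7 to 397 CPM in Female_VEH. In Female_CORT it was 505, 292, 552, 466.5 and 601 CPM. F4, the treated female with the lowest Bcl2l1, was also the lowest here, but F8, with the highest Bcl2l1, was the next lowest. M4 had the highest sum of the treated males, while M10, with the highest Bcl2l1, was at 282 CPM. Of 4 satellite cell markers, 1 was called lower in males and 3 in females. The 5 lymphocyte markers summed to at most 3.10 CPM in any mouse. Hepatocyte markers were highest in M8 and F10, at 2357 and 2345 CPM. Of 7 slow fiber markers the sum was 3865 and 5006 CPM in M3 and M5 and 5793 and 3516 CPM in F3 and F5. It was 40.1 to 178 CPM in the other vehicle mice. M3, M5, F3 and F5 had the lowest Capn1 of their vehicle groups. In Female_CORT the sum was 3171, 173, 287, 1809 and 1431 CPM, and F10 and F6 had the lowest Capn1. F2, with the highest sum, was at the group median of Capn1 (76.3 CPM). Among treated males the sum was highest in M6 and M10, at 2298.5 and 1294 CPM. M10 had the lowest Capn1, whereas M6, at 100.3 CPM, was above the group median of 98.4 CPM. The part of the slow fiber, fibroblast, macrophage, erythrocyte, satellite cell and muscle fiber markers in the values of the 9 genes was not tested.

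The other genes of these systems were counted from lists by role, with values for those called in a treatment comparison. The shares of all tested genes called, 26.3% in males and 13.4% in females, are the background to these counts. Of 12 other calpain genes 7 were tested, and only Capn7, an atypical calpain, was called, at -0.41 in females (SE 0.11, edgeR adjusted p = 0.00707). Of 19 other BCL-2 family genes 13 were tested, and in males 3 were called higher and 1 lower. The higher ones were the BH3-only killers Bmf and Bcl2l11 (BIM), at 0.48 and 0.41, and Bcl2l13, at 0.29, and the lower one was the survival gene Bcl2l2, at -0.36. In the same order their female values were 0.41, 0.36, 0.13 and -0.04, none called. In females the BH3-only gene Bbc3 (PUMA) was called, at 0.93 (SE 0.22, adjusted p = 0.00378). Its level was low, at a mean of 1.59 CPM in Female_VEH and 3.03 CPM in Female_CORT. The male value of Bbc3 was 0.50, not called.

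Of 27 caspases, death receptors and their inhibitors 25 were tested. In males 3 were called higher (Cradd 0.69, the death receptor Fas 0.52 and the inhibitor Birc6 0.44) and 3 lower (Casp4 -1.17, Casp8 -0.73 and Casp12 -0.71). Casp4 was low, at a mean of 1.85 CPM in Male_VEH and 0.82 CPM in Male_CORT, and these groups overlapped. In females only Fas was called, at 0.78 (SE 0.15, adjusted p = 0.000957). Of 11 muscle proteins that bind calpains or are cut by them 10 were tested, and 2 were called higher in each sex. Desmin (Des) was called in both, at 1.21 in males and 0.64 in females, with the calcium release channel Ryr1 in males (0.77) and spectrin (Sptan1) in females (0.74). The interaction called none of these genes by edgeR.

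**Figure D4:**
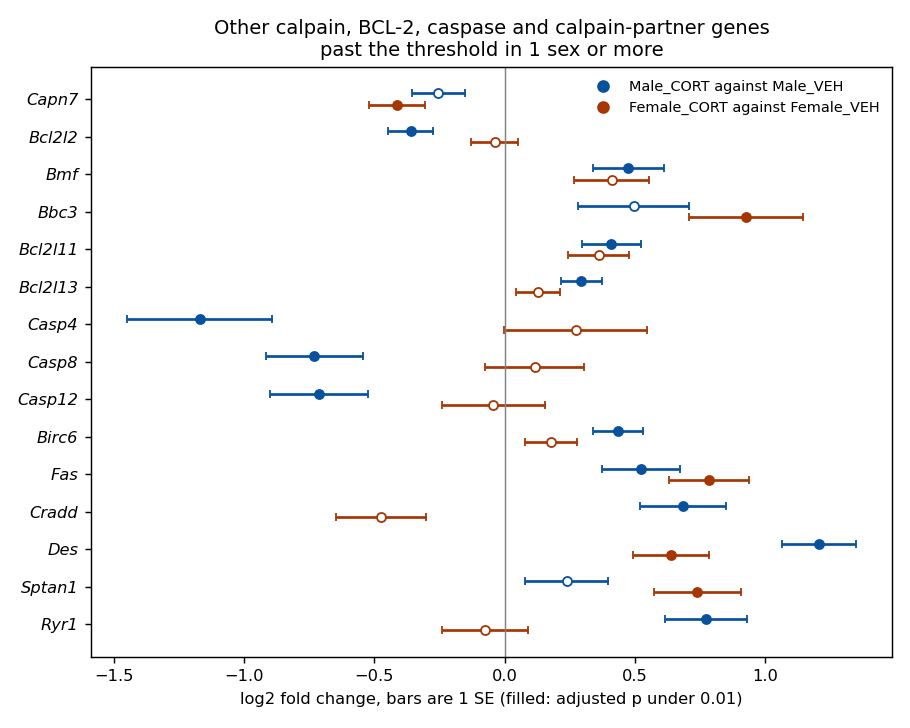
Log2FC of corticosterone against vehicle (horizontal axis) in males (blue) and females (red), for the genes of the 4 lists that were called in 1 sex or more, with bars of 1 SE and filled points for calls. In males and females Des is at 1.21 and 0.64 and Fas is at 0.52 and 0.78. Casp4 is at -1.17 in males, from a low level (mean 1.85 CPM in Male_VEH).

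Per kb of exon, Mcl1, Capn3 and Capn1 were the most abundant of the 9 genes in Male_VEH, at 38.7 ± 6.51, 36.2 ± 3.10 and 31.3 ± 4.55 CPM per kb (SD, n = 6), and their ranges overlapped. Nol3 (17.1 ± 1.43), Capn2 (10.7 ± 0.31), Cast (8.04 ± 0.91), Bax (6.35 ± 0.57), Bcl2l1 (2.78 ± 0.30) and Cflar (2.11 ± 0.12) followed. The ranges of Cast and Bax overlapped, and the other neighbours in that order did not. In Male_CORT, Mcl1 reached 53.5 ± 4.19, Capn2 18.0 ± 1.91 and Bcl2l1 8.02 ± 1.45 CPM per kb (SD, n = 6), the last close to Cast at 8.31 ± 0.52. In Female_CORT, Nol3 was at 11.1 ± 1.89 and Capn2 at 17.4 ± 4.28 CPM per kb (SD, n = 5). Lengths are of all annotated exons joined, so a gene with long unused exons is given too low a level.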

How the data were processed

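RNA of 23 quadriceps samples was sequenced. The authors aligned read pairs with STAR 2.7.3a to mm10 and counted them by strand with HTSeq 0.12.4, and deposited raw counts per gene without normalization. Summary entries for unassigned read pairs (5, holding 10.7% to 15.3% of read pairs) were left out. Counts on genes were 20904150 to 21984477 per mouse, so depth differed little. GENCODE M21 (GRCm38) gave names and positions. The 9 genes and the lists were chosen with earlier results of these data known.

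The test was that of edgeR 4.0.16 in R 4.3.3 (TMM, quasi-likelihood test, 1 mean per group, all 23 mice). A gene was tested if 4 or more mice of 1 group had over 20 normalized counts (13049 genes). The threshold was a Benjamini-Hochberg adjusted p of 0.01. The SE is the log2FC divided by the square root of F. Alternatives were DESeq2 1.42.0, limma-voom (limma 3.58.1) with quality weights, edgeR's filterByExpr (15045 genes), no filter (31922 genes), the median of ratios, only the groups compared, a log2FC limit of 1, a replicate block and 23 fits without 1 mouse. Leaving out the mice highest in adipocyte or in hepatocyte markers, and the adipocyte covariate (the mean log2 CPM of 7 markers), were chosen after seeing the data. The edgeR fit was tried on simulated counts in which 200 genes changed equally in both sexes. The same spread beyond sampling noise was set for all genes and groups, so groups of unequal spread were not covered. The text names all 9 genes, list genes called in a treatment comparison, up to 8 a list, and the 2 genes nearest in profile to each of the 9 that was called. Bcl2, Bok and Bak1 are named outside this rule, because they were called between treated groups. Replicates of a group differed by more than sampling noise (lowest chi-square per degree of freedom 15.0). Of the list of caspases and death receptors, 2 genes are not reported here.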

Additional observations from a re-analysis of the deposited data

Results flagged for a closer look

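In 36 groups of 5 or 6 mice, 1 for each of the 9 genes and each group, 3 had 1 mouse far from the others by Dixon's criterion, where chance gives about 1 in 20 groups. F4 had 108 CPM of Cast in Female_CORT, and the next mouse had 89.1 CPM. M10 had 49.8 CPM of Bcl2l1 in Male_CORT, and the next had 36.7 CPM. F3 had 19.1 CPM of Bcl2l1 in Female_VEH, and the next had 11.7 CPM. Bcl2l1 in F3 was above that of the treated female F4, at 11.3 CPM.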

How the results depend on the processing

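The numbers of the 9 genes called were 4 in males, 4 in females, 0 for the interaction, 0 between vehicle groups and 3 between treated groups. An added log2FC limit of 1 left 1 in males, 1 in females and 0 between treated groups (982, 732 and 1014 of all genes). With only the groups compared, females gave 1 (Capn2; 561 of all genes). The interaction gave 2 with DESeq2, 2 with limma-voom and 2 without F8, where 896, 693 and 893 of all genes were called, beside 90 by edgeR with all mice. Leaving out F2, F6 and F10 gave 0 in females and 1 between treated groups (130 and 206 of all genes). That 1 was Capn2, higher in males at 0.49 (edgeR adjusted p = 0.00564) and not called there with all mice. The adipocyte covariate gave 2 in females and 1 between treated groups (718 and 1602), and leaving out M8 and F10 gave 1 between treated groups (1399). The cause of these changes was not tested. Without 1 mouse in turn, the counts were 3 to 4 in males, 3 to 5 in females, 0 to 2 for the interaction, 0 to 0 between vehicle groups and 2 to 3 between treated groups. Bcl2l1, Capn2 and Mcl1 in males and Capn2 in females passed in every planned setting without a log2FC limit, while Cflar in males was lost in 9 of 29 alternatives, among them the fits without M1, M3, M5, M11, M4, M6, M10 or M12. Capn1 in females was lost without 1 of F1, F7, F9, F11, F2, F6, F10 and 7 of the males, and Cflar between treated groups without F2, F6, F10, M4 or M10.

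No called gene changed direction in any alternative, while 44 values of uncalled genes did. For the interaction, Cast was 0.0033 with DESeq2, 0.049 with limma-voom, 0.0030 with the median of ratios, 0.031 with no gene filter and 0.020 without F10 and M8. Capn2 was 0.018 with no gene filter, 0.036 without F10 and M8, 0.41 without F2, F6 and F10 and 0.079 with the adipocyte covariate, and Bax was -0.11 without F10 and M8 and -0.046 without F2, F6 and F10. Between treated groups, Bax was 0.0019 with DESeq2 and 0.027 with no gene filter, Capn2 was -0.042 with limma-voom and Cast was -0.028 without F2, F6 and F10. Without F10 and M8, male Nol3 was -0.0058 and Bax -0.0031. Without F2, F6 and F10, female Cflar was -0.14 and Mcl1 -0.015. Without 1 mouse in turn, male log2FC ran from -0.0081 to 0.20 for Bax, -0.00042 to 0.076 for Capn3, -0.0026 to 0.088 for Cast and -0.011 to 0.10 for Nol3, and female Cast from -0.0033 to 0.090. The interaction ran from -0.087 to 0.12 for Bax, -0.13 to 0.090 for Capn2 and -0.064 to 0.050 for Cast, and the difference between treated groups from -0.15 to 0.046 for Bax and -0.050 to 0.18 for Capn2.

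Males and females share mouse numbers, and the deviations of the 11 same-numbered pairs correlated between -0.377 and 0.477. The vehicle pairs ran from 0.0846 to 0.477 and the treated pairs from -0.377 to 0.242. Pairs of unlike number were not compared. The main fit took the numbers as names only, and whether equal numbers stand for a shared batch was not tested. With the replicate block, 2 of the 9 genes were called between treated groups, 0 for the interaction and 0 between vehicle groups. Of all tested genes, 2234, 105 and 138 were called in these comparisons, in the same order. With this block Capn2 was 0.036 for the interaction and Bax was 0.028 between treated groups. Treated and vehicle mice of a sex share no number, so no block could be fitted there.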

Other observations

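The genes whose profiles over the 23 mice were nearest to those of the called genes were found by the root mean square difference of centred log2 CPM. For Bcl2l1 these were Jade2 (0.266) and Dynll1 (0.314), both called higher in each sex, with log2FC of 1.31 and 1.48 in males and 1.104 and 1.39 in females. For Capn2 they were Lrrc59 (0.150) and Hipk1 (0.157), also called higher in each sex. For Nol3 they were Maf1 and A930005H10Rik (each 0.137), with female log2FC of -0.35 and -0.45. Cflar was nearest to Blcap (0.114) and Abca2 (0.12), Mcl1 to Ncaph2 (0.136) and Clptm1 (0.139), and Capn1 to Ccdc91 (0.0917) and Ppp3cb (0.0960). The spread of the 6 genes themselves on this measure was 0.208 for Cflar to 0.805 for Bcl2l1. These are descriptions over shared samples, and no test was made of them.

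Between treated groups, 11 of 25 tested caspases, death receptors and their inhibitors were called lower in males than in females and none higher by edgeR, where 14% of all tested genes were lower and 9.31% higher. Casp8 was at -0.99 (SE 0.19, edgeR adjusted p = 0.000687). Of 13 tested BCL-2 family genes, Bcl2 (-0.94, adjusted p = 0.00904) and Bok (-1.40, adjusted p = 0.00113) were lower in males and Bak1 (0.55, adjusted p = 0.00253) was higher. Bok was low, at a mean of 1.115 CPM in Male_CORT and 2.95 CPM in Female_CORT. The macrophage markers were likewise lower in Male_CORT, with 6 of 7 called, and their part in these differences was not tested.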
